A study of Homo sapiens with 6 samples.

Results

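The 22q stretch examined here runs from NOL12 to CYP2D6 on the long arm of human chromosome 22, and its members are 68 of the 18417 genes measured. The members were taken as the genes of the stretch, ordered by their RefSeq starts (GRCh38.p14), that had 1 gene symbol and a mean log2(intensity + 1) of 6 or more over the 6 arrays. Symbols starting with CYP, ZNF or SNOR were left out, as were SREBF2, ATF4 and DNAJB7. Of the genes measured by features with 1 symbol, 84 lay in the stretch, of which 8 were left out by symbol and 8 more by level. The stretch was picked because its genes were higher in CAsE-PE than in RWPE-1 cells, so every difference between these cells given for a member, with its error and its call, is a description of the values that chose it.

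CAsE-PE cells are the malignant descendants of RWPE-1 cells, grown continuously in 5 µM sodium arsenite, and were measured after 30, 33.5 and 35 weeks of exposure (n = 3 arrays). RWPE-1 is an immortal line of human prostate epithelium that carries the genes of human papillomavirus 18, and untreated cells were measured at passages 18, 38 and 42 (n = 3 arrays). Both grew in a serum-free keratinocyte medium to which pituitary extract and EGF had been added. All 3 exposed arrays are labelled as 1 transformed line, and the passage of the exposed cells is not given in the sources used here, so arsenite and time in culture cannot be told apart. Nothing in the labels says that the arrays of a group came from separate cultures, and p-values then measure only the spread between these arrays.

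Genes that lie side by side on a chromosome seldom share a function, and this stretch is no exception. It holds parts of machines that every cell needs, such as ribosomes, RNA polymerase, the spliceosome and mitochondrial respiration, next to receptors and channels best known from neurons and a tandem family of antiviral cytidine deaminases. Members of stable complexes are usually made in step with partner subunits whose genes lie on other chromosomes, which makes those partners a natural comparison for a gene of the stretch.

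Array medians lay between 91.7 and 97.2 intensity units. Of the markers examined, 6 of 7 epithelial genes were measured, and their log2 intensities were 9.33 to 11.93 in CAsE-PE and 9.74 to 12.05 in RWPE-1. The log2 of their summed intensity was 13.35 to 13.52 in CAsE-PE and 13.55 to 13.64 in RWPE-1, with the basal keratin gene KRT14 lower by -1.60 and the cadherin gene CDH1 higher by 0.39, both called. The 2 measured of 5 luminal prostate markers were dim, with log2 intensities of 5.91 to 6.0 in CAsE-PE and 6.15 to 6.22 in RWPE-1. The 4 measured of 5 leukocyte markers reached 5.97 in CAsE-PE and 6.40 in RWPE-1, with CD14 called lower by -0.43, and no detection call tells such values from background. On the same summed scale the 3 endothelial markers had 7.20 to 7.36 in CAsE-PE and 7.27 to 7.51 in RWPE-1, with 0 called, and the 7 fibroblast markers 8.93 to 9.01 in CAsE-PE and 8.96 to 9.06 in RWPE-1, with PDGFRB called lower. The part of these markers in the results below was not tested. Over all 18417 genes the median difference, CAsE-PE minus RWPE-1, was -0.06 on the log2 scale.

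The genes of the stretch were on the whole higher in CAsE-PE. Their median difference was 0.42 on the log2 scale, a 1.33-fold higher intensity, with quartiles of 0.05 and 0.60. The difference was positive for 52 members and negative for 16, and it reached from -0.26 for GALR3 to 1.39 for FAM227A. In RNA of whole cultures, more cells that express a gene and more RNA per cell cannot be told apart. A gene is named called here when its Benjamini-Hochberg adjusted p in a limma fit over all genes was under 0.05. On that rule 31 members were called higher, 0 lower and 37 neither, beside 9.04% of all genes called higher and 8.71% called lower. All 3 CAsE-PE arrays lay above all 3 RWPE-1 arrays for 43 members, where 16.1% of all genes had that pattern. All 3 lay below for 6 members, where 22.8% of all genes did, and the arrays of the groups overlapped for the other 19. These shares are over all genes without the level limit. Of the 13139 genes with a mean of 6 or more, 1541 were called higher and 1275 lower. All CAsE-PE arrays lay above for 2716 of them and below for 2845.

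**Figure D1:**
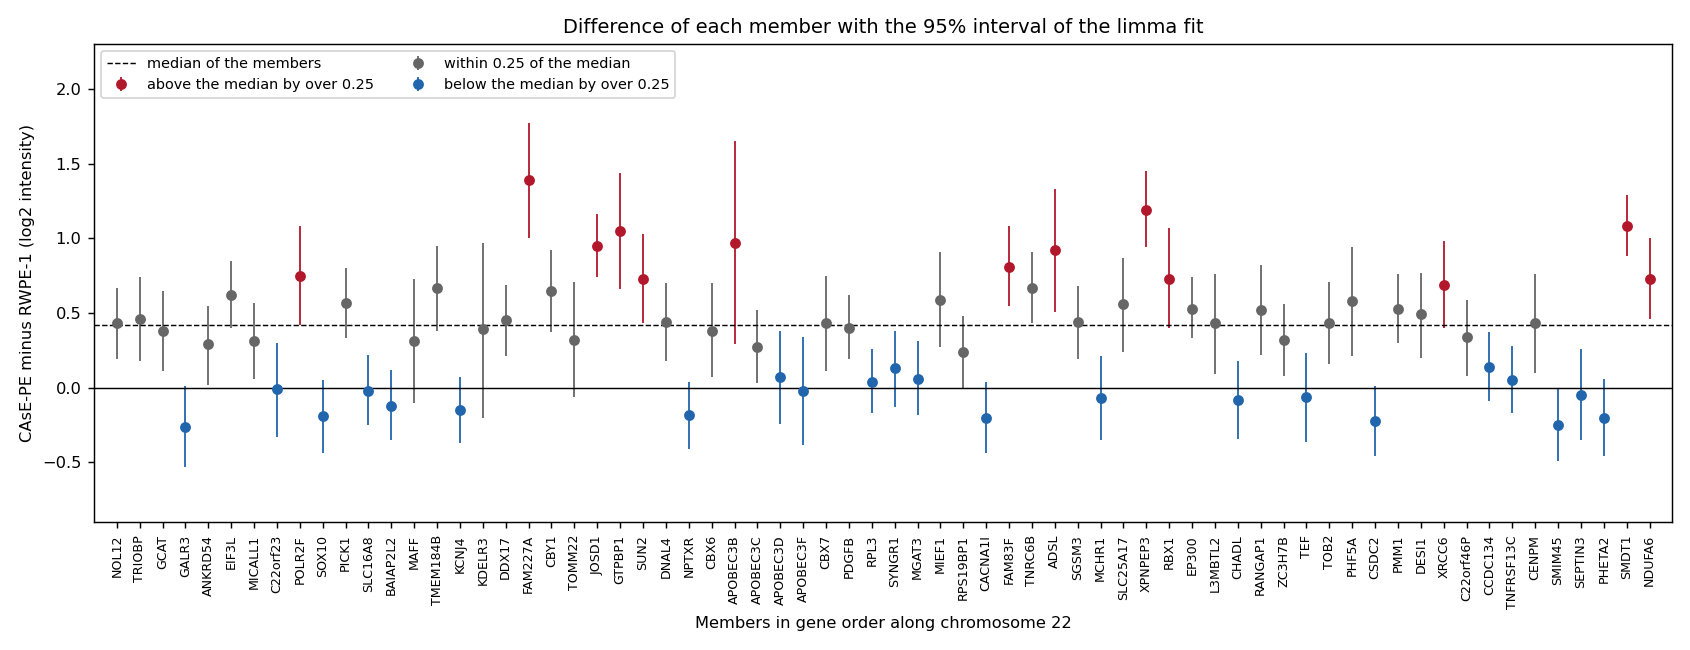
CAsE-PE minus RWPE-1 difference of log2(intensity + 1) for the 68 members in gene order, with the 95% interval of the limma fit (n = 3 arrays per group). The dashed line is the members' median of 0.42, and members near 0 (blue) stand between members near or above the median (grey and red) along the whole stretch.

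The shift was present on each CAsE-PE array. The median of the members, taken as each array minus the RWPE-1 mean of the gene, was 0.33 at 30 weeks, 0.43 at 33.5 weeks and 0.38 at 35 weeks, against -0.03, 0.00 and 0.05 in RWPE-1 at passages 18, 38 and 42. These medians did not overlap between the groups. Genes outside the limits of the stretch, kept by the same level limit, also had positive medians. The 25 genes just before NOL12 had a median difference of 0.19, and the 25 just after CYP2D6 had 0.32. Over the rest of chromosome 22 the medians were 0.29 for the 188 genes before the stretch and 0.32 for the 75 after it. Of these 188 and 75 genes, 79 and 32 were called higher and 3 and 1 lower. All CAsE-PE arrays lay above all RWPE-1 arrays for 100 and 40 of them, so calls and separation were also frequent outside the stretch. The 7q stretch from ALKBH4 to ZNF777 had a median of 0.59 over 121 genes and the 17q stretch from SPATA20 to SSTR2 had 0.38 over 111, both also chosen on these arrays, and the differences between these sets were not tested.

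**Figure D2:**
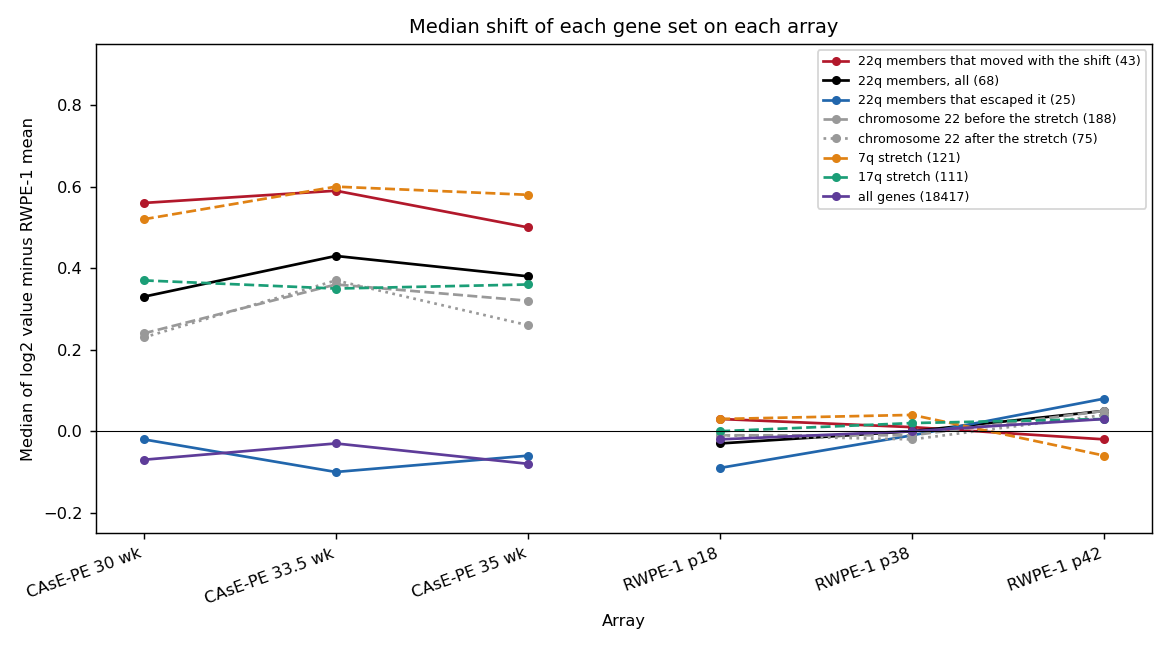
Median over each gene set of an array's log2 value minus the RWPE-1 mean of the gene, for the 3 CAsE-PE arrays (left) and the 3 RWPE-1 arrays (right), with the number of genes in brackets. The 68 members lie between 0.33 and 0.43 on the CAsE-PE arrays, and the 25 members that escaped lie between -0.10 and -0.02 there.

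Members were sorted by how far they lay from the common shift. A member was taken to follow the shift when its difference lay within 0.25 of the median, from 0.17 to 0.67, and to lie above or below it otherwise. By that rule 33 members followed, 13 lay above and 22 lay below. The medians of these classes were 0.92 above, 0.43 among the followers and -0.07 below. The nearest members on either side of the limits were CCDC134 at 0.14 and RPS19BP1 at 0.24, and TMEM184B at 0.67 and XRCC6 at 0.69. The 95% interval of a member's own difference left out the median for all 22 that lay below, for 10 of the 13 above and for 1 follower, TNRC6B.

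Members whose difference was under 0.1, or whose groups overlapped, were taken to escape the shift. There were 25 of them, the 22 that lay below and 3 followers with overlapping groups, MAFF, KDELR3 and TOMM22. TOMM22 was judged on its brighter feature alone. The other 43 had a median difference of 0.53, a 1.45-fold higher intensity in CAsE-PE. Escaping members did not lie together. In gene order the members changed between escaping and not escaping so often that they formed 33 runs, and the longest run without an escaping member held 5 genes, from SLC25A17 to L3MBTL2. No run of escaping members was longer than 3 genes. Cut into 4 successive sets of 17 genes, the stretch had medians of 0.31, 0.43, 0.52 and 0.34, with 8, 5, 5 and 7 escaping members.

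**Figure D3:**
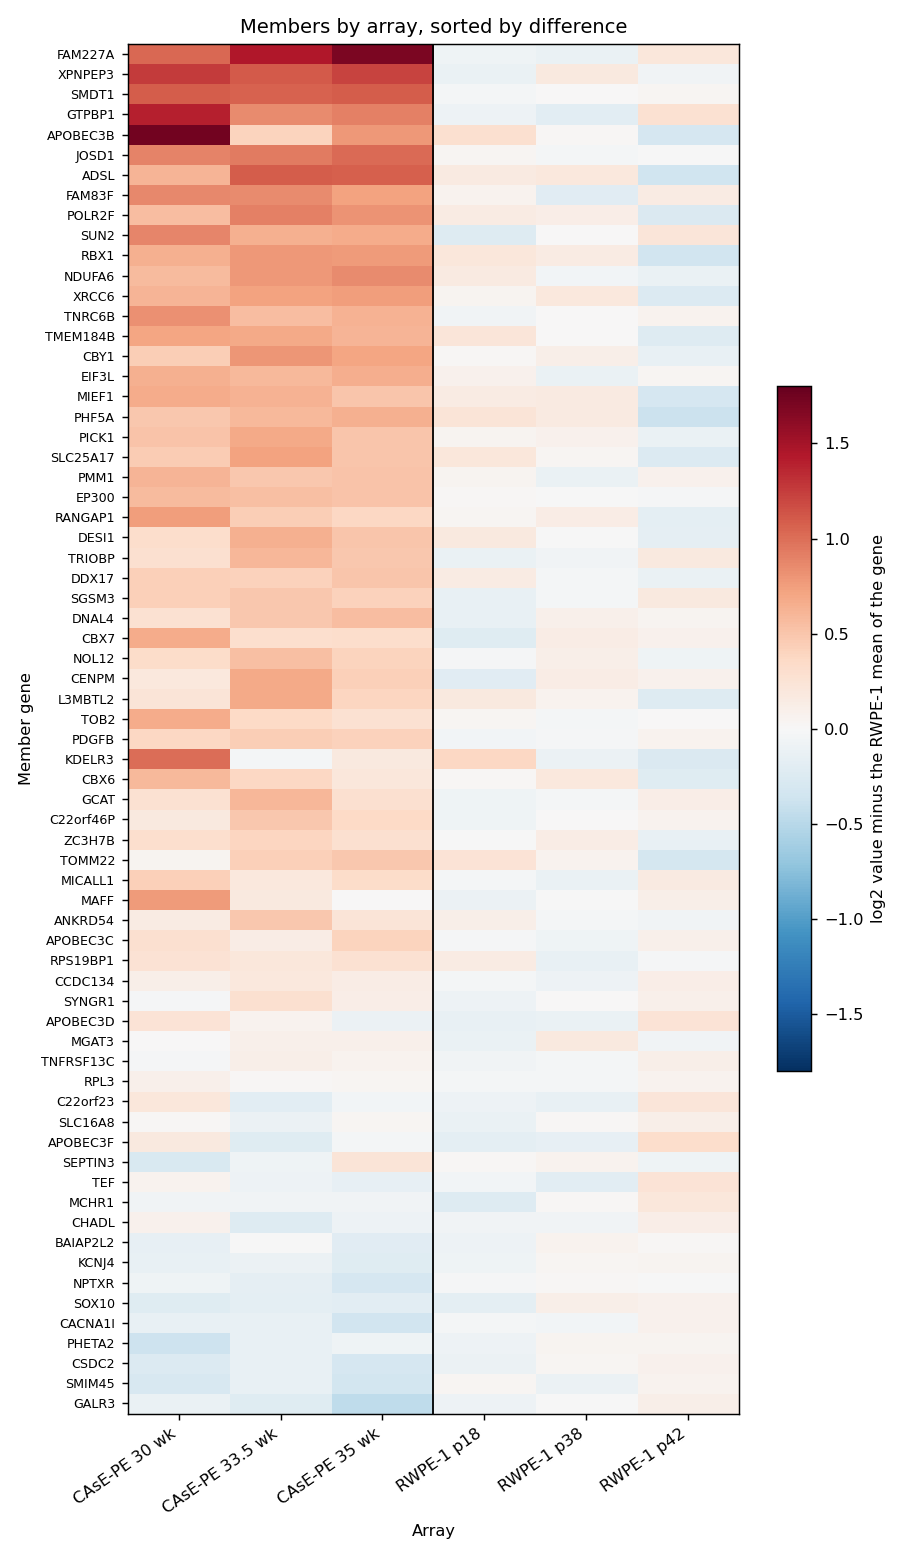
Each member's log2 value on each array minus its RWPE-1 mean, with members sorted by their difference between the groups, CAsE-PE arrays left of the black line and RWPE-1 arrays right of it. FAM227A leads with 1.39 and GALR3 closes with -0.26, and APOBEC3B, KDELR3 and MAFF stand out by a high value on the 30 week array.

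Among the 44 members with a RefSeq promoter entry, 3 pairs are transcribed in opposite directions from starts that lie within 1000 bases of each other. The start used is the first that RefSeq lists per gene, and the other members were not searched. POLR2F and C22orf23 start 30 bases apart. POLR2F, a subunit shared by the nuclear RNA polymerases, differed by 0.75 and C22orf23, an uncharacterised gene just inside the level limit, by -0.01. CBY1 and FAM227A start 246 bases apart and differed by 0.65 and 1.39. XRCC6 and DESI1 start 252 bases apart and differed by 0.69 and 0.49. The 250 bases before 4 of these starts are shown because they hold, on the plus and minus strands of the same DNA, the region around the starts of an escaping and a non-escaping gene, and the promoters of 2 genes that moved with the shift. They are from RefSeq, assembly GRCh38.p14, 5′ to 3′ on the strand of the gene. Capitals mark GC boxes (GGGCGG) and CCAAT boxes (CCAAT) on either strand, so that CCGCCC and ATTGG are the same boxes read from the other strand.
POLR2F, chr22:37953449-37953698, plus strand: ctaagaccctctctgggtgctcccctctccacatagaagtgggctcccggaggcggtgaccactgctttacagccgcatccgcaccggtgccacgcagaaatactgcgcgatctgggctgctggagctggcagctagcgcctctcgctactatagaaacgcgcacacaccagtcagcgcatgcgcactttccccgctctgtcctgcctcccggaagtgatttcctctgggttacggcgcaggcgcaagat
C22orf23, chr22:37953670-37953919, minus strand: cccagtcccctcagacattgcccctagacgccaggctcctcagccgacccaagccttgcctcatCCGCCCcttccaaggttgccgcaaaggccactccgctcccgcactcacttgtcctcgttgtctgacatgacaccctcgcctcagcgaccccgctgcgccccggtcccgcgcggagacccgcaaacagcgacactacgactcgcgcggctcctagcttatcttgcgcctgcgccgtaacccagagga
CBY1, chr22:38656388-38656637, plus strand: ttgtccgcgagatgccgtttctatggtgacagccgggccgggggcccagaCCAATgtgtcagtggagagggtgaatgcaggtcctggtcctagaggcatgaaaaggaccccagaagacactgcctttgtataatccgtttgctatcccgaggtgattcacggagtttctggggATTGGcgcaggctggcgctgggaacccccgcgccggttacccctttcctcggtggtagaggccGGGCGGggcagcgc
XRCC6, chr22:41621045-41621294, plus strand: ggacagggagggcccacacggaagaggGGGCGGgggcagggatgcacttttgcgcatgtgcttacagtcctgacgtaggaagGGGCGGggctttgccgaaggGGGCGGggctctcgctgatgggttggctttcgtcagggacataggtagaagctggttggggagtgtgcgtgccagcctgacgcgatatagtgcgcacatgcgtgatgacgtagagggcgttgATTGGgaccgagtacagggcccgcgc

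The windows of POLR2F and C22orf23 overlap at their 3′ ends. No GC box and no CCAAT box was found in the POLR2F window, and 1 GC box in that of C22orf23. The CBY1 window held 1 GC box and 2 CCAAT boxes, and the XRCC6 window 3 GC boxes and 1 CCAAT box. RefSeq promoter entries were found for 44 of the 68 members. A GC box was present in 31 of them, or 70.5%, and in 42.3% of 27305 promoters of the same length, and a CCAAT box in 45.5% and in 33.0%. The TATA box (TATAAA) was found in 4.55% of the members' promoters and in 11.1% of all, the AP-1 element (TGANTCA) in 9.09% and in 6.60%, and the core of the antioxidant response element (TGACNNNGC) in 15.9% and in 11%, each searched on both strands. The median ratio of observed to expected CpG was 0.834 in the 10 promoters of members above the shift and 0.836 in the 25 of followers. In the 9 of members below the shift it was 0.453, against 0.556 in all promoters. These 10, 25 and 9 promoters stand for 13, 33 and 22 members. The 9 were split, so their median is the value of TEF alone. SLC16A8, CACNA1I, SMIM45 and KCNJ4 had 0.114 to 0.264, and CCDC134, C22orf23, SYNGR1 and RPL3 had 0.809 to 1.17. The members had passed the level limit, whereas all promoters were taken without one, so the sets are not matched. These shares describe the letters of the windows and were not tested.

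The 10 genes of RNA synthesis, RNA processing and the ribosome had a median difference of 0.51, and 7 of them were called higher. POLR2F had log2 intensities of 8.87, 9.23 and 9.12 in CAsE-PE after 30, 33.5 and 35 weeks, against 8.47, 8.43 and 8.05 in RWPE-1 at passages 18, 38 and 42. Its lowest CAsE-PE array was above its highest RWPE-1 array, and the difference was 0.75 (SE 0.15), or 1.68-fold. EIF3L, a subunit of the factor that brings the small ribosomal subunit to mRNA, had 11.32, 11.26 and 11.34 in CAsE-PE, against 10.76, 10.57 and 10.72 in RWPE-1. Its groups stood well apart, with little spread within CAsE-PE, and the difference was 0.62 (SE 0.10).

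GTPBP1, a GTPase tied to translation and mRNA turnover, had 9.61, 9.07 and 9.12 in CAsE-PE, against 8.13, 8.03 and 8.49 in RWPE-1. The 30 week array was the highest and the groups did not overlap, with a difference of 1.05 (SE 0.17), the largest in this group of genes. PHF5A, a small component of the splicing factor 3b complex, had 8.87, 8.97 and 9.02 in CAsE-PE, against 8.61, 8.54 and 7.99 in RWPE-1. The array of passage 42 was low, and the difference of 0.58 (SE 0.16) became 0.38 without it. TNRC6B, the scaffold that links Argonaute proteins to mRNA decay, differed by 0.67 (SE 0.11) and DDX17, an RNA helicase, by 0.45 (SE 0.10). NOL12, a nucleolar protein of ribosomal RNA maturation that opens the stretch, had 7.93, 8.14 and 8.0 in CAsE-PE, against 7.57, 7.70 and 7.51 in RWPE-1. All its CAsE-PE values were higher, by 0.43 (SE 0.11) on average, which is close to the members' median.

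RPL3, a core protein of the large ribosomal subunit, was the exception among these genes. It had 10.52, 10.45 and 10.46 in CAsE-PE, against 10.40, 10.40 and 10.49 in RWPE-1. The groups overlapped, all 6 arrays lay close together, and the difference was 0.04 (SE 0.09, 95% interval -0.17 to 0.26). The ribosome-associated RPS19BP1 differed by 0.24 and the RNA-binding zinc finger protein ZC3H7B by 0.32, both with groups apart and neither called. Copies of ribosomal protein genes elsewhere in the genome can share sequence with array probes, and their part in the RPL3 value was not tested.

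Among 11 mitochondrial and metabolic genes the median difference was 0.56, and 7 were called higher. XPNPEP3, a mitochondrial aminopeptidase, had 8.54, 8.38 and 8.5 in CAsE-PE, against 7.16, 7.46 and 7.22 in RWPE-1. The groups were far apart and the difference was 1.19 (SE 0.11), or 2.29-fold. SMDT1, which encodes the EMRE subunit that the mitochondrial calcium uniporter needs to conduct, had 8.59, 8.56 and 8.59 in CAsE-PE, against 7.46, 7.5 and 7.53 in RWPE-1. Within each group its arrays were nearly equal, and the difference was 1.08 (SE 0.09), or 2.12-fold.

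ADSL, adenylosuccinate lyase of purine synthesis, had 8.68, 9.16 and 9.15 in CAsE-PE, against 8.23, 8.27 and 7.72 in RWPE-1. The 30 week array was the lowest of CAsE-PE and passage 42 the lowest of RWPE-1, and the groups did not overlap, with a difference of 0.92 (SE 0.18). NDUFA6, an accessory subunit of respiratory complex I and the last member in gene order, had 9.80, 10.01 and 10.08 in CAsE-PE, against 9.40, 9.19 and 9.11 in RWPE-1. Its groups were apart by a difference of 0.73 (SE 0.12). The mitochondrial fission and fusion adaptor MIEF1 differed by 0.59, the peroxisomal carrier SLC25A17 by 0.56, the phosphomannomutase PMM1 by 0.53 and the threonine breakdown enzyme GCAT by 0.38.

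TOMM22, the central receptor of the outer membrane protein translocase, had 10.57, 10.95 and 11.01 in CAsE-PE, against 10.77, 10.59 and 10.20 in RWPE-1. The 30 week array lay below the highest RWPE-1 array, so the groups overlapped. The difference of 0.32 (SE 0.17) was 0.16 without the passage 42 array and 0.46 without the 30 week array. These values and the overlap are those of the brighter of 2 features, and where its probes lie in the genome was not examined. The other array feature for TOMM22 also differed by 0.32, with means of 8.11 in CAsE-PE and 7.80 in RWPE-1. Whether its arrays overlapped between the groups was not examined. SLC16A8, a lactate transporter best known from the retinal pigment epithelium, had 7.70, 7.58 and 7.72 in CAsE-PE, against 7.56, 7.70 and 7.79 in RWPE-1. Its groups overlapped over most of their range, with a difference of -0.02 (SE 0.10). MGAT3, a glycosyltransferase that adds bisecting sugars to N-glycans, differed by 0.06, again with overlap.

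**Figure D4:**
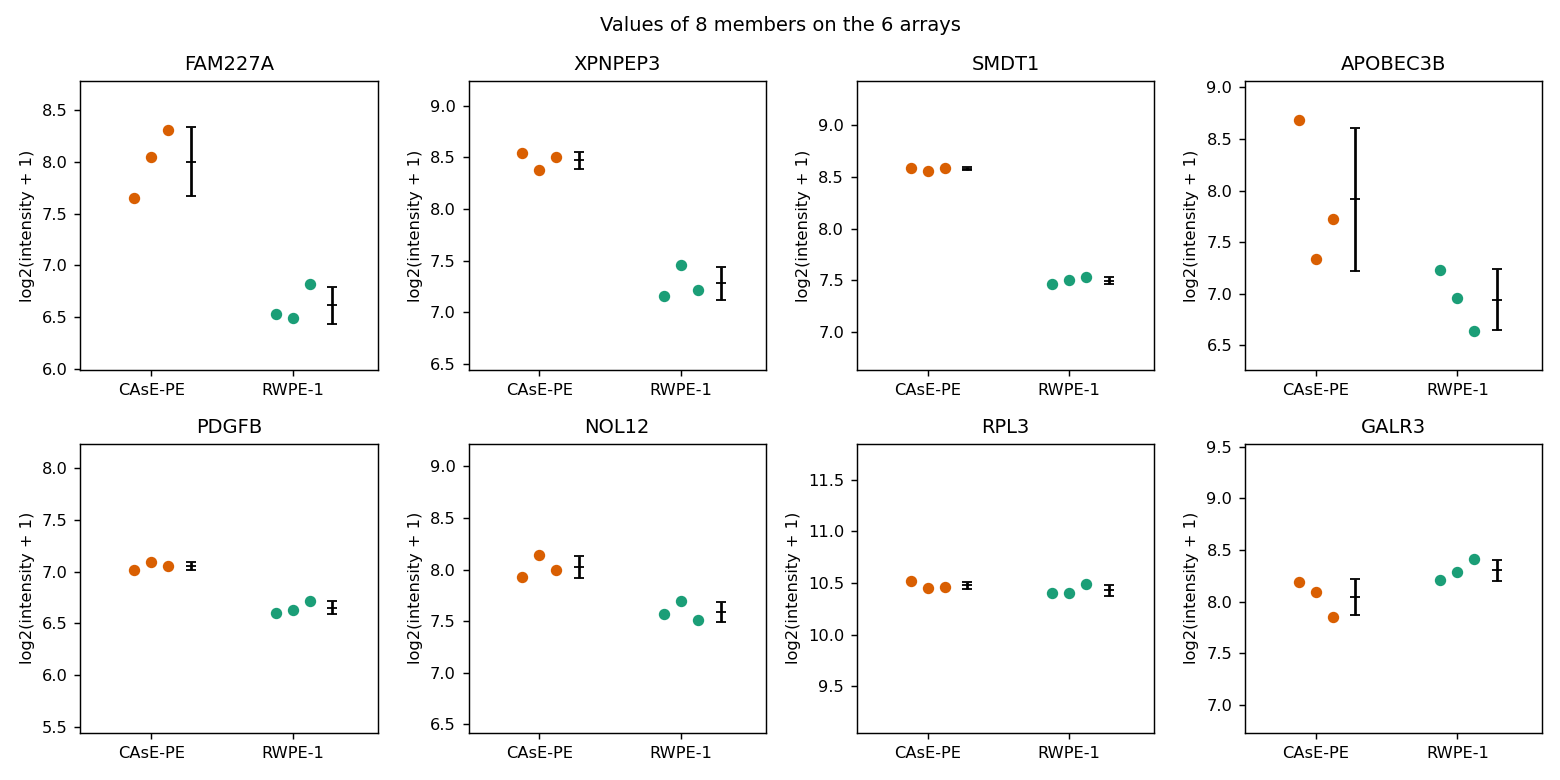
Log2(intensity + 1) of 8 members on the 3 CAsE-PE arrays (orange, in order of weeks) and the 3 RWPE-1 arrays (green, in order of passage), with the mean and SD of each group in black and the same span on every vertical axis. SMDT1 has SDs of 0.02 in CAsE-PE and 0.04 in RWPE-1, APOBEC3B has SDs of 0.69 and 0.30, and the groups of RPL3 overlap.

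The 16 genes of chromatin, transcription and DNA had a median difference of 0.41, and 4 were called higher. XRCC6, the Ku70 subunit that binds broken DNA ends, had 9.45, 9.57 and 9.59 in CAsE-PE, against 8.89, 9.04 and 8.60 in RWPE-1. The groups did not overlap and the difference was 0.69 (SE 0.13). EP300, a histone acetyltransferase and coactivator, had 8.81, 8.78 and 8.75 in CAsE-PE, against 8.27, 8.24 and 8.22 in RWPE-1. It was among the least variable members within each group, and the difference of 0.53 (SE 0.09) stayed between 0.52 and 0.55 with any array left out. The other 2 called members were CBY1, an antagonist of beta-catenin that also acts at cilia, and the antiproliferative TOB2, which differed by 0.65 and 0.43. The call of TOB2 held in 1 of the 6 fits with an array left out.

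Several chromatin genes lay almost on the members' median without being called. L3MBTL2, a reader protein of a polycomb-type complex, had 7.51, 7.96 and 7.67 in CAsE-PE, against 7.46, 7.34 and 7.05 in RWPE-1. Its lowest CAsE-PE array was barely above its highest RWPE-1 array, and the difference was 0.43 (SE 0.15). CBX6 and CBX7, chromobox subunits of polycomb repressive complex 1, differed by 0.38 (SE 0.14) and 0.43 (SE 0.14), and CENPM, a kinetochore protein, by 0.43 (SE 0.15). In all 4 the arrays of the groups stood apart.

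MAFF, a small MAF protein that pairs with NRF2 and BACH factors on antioxidant response elements, had 7.46, 6.86 and 6.69 in CAsE-PE, against 6.59, 6.68 and 6.80 in RWPE-1. Its difference of 0.31 (SE 0.18) came with overlapping groups, and it was 0.08 without the 30 week array. SOX10, a transcription factor of neural crest cells, had 6.53, 6.57 and 6.56 in CAsE-PE, against 6.57, 6.85 and 6.83 in RWPE-1. It was even across CAsE-PE, its groups met at passage 18, and the difference was -0.19 (SE 0.11). CSDC2, a cold shock domain protein that binds RNA, was lower on all 3 CAsE-PE arrays, by -0.22 (SE 0.10), and the leucine zipper transcription factor TEF differed by -0.06.

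The APOBEC3 genes, cytidine deaminases that restrict retroviruses, lie next to one another, and the 4 members among them differed by -0.02 to 0.97. APOBEC3B had 8.68, 7.34 and 7.72 in CAsE-PE, against 7.23, 6.96 and 6.64 in RWPE-1. The 30 week array was far above the other two, the groups stood apart by little, and the difference of 0.97 (SE 0.30) was not called and became 0.59 without the 30 week array. APOBEC3C differed by 0.27 (SE 0.11), APOBEC3D by 0.07 (SE 0.14) and APOBEC3F by -0.02 (SE 0.16), with -0.16 for the other feature of APOBEC3F. The family members are similar in sequence, so their probes may share signal and the values of single members are uncertain.

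Beyond the level limit APOBEC3H, just outside it with a mean of 5.58, differed by 0.18. APOBEC3G, also outside with a mean of 5.55, had 5.26, 4.76 and 4.51 in CAsE-PE, against 6.30, 6.32 and 6.15 in RWPE-1. All its CAsE-PE arrays were lower, and the difference of -1.41 (SE 0.17) was the only one called lower among the 76 genes that passed the symbol rule. It was singled out after its values were seen. The other gene just outside the limit, the phospholipase PLA2G6, had a mean of 5.95 and differed by 0.45, with overlapping groups. Just inside it were C22orf23, with a mean of 6.05 and a difference of -0.01, and SEPTIN3, with 6.17 and -0.05. The 8 genes under the limit had a median difference of 0.02.

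The 16 membrane, trafficking and cytoskeletal genes had a median difference of 0.22, with 6 called higher and 7 with a negative difference. FAM83F, which binds casein kinase 1, had 7.96, 7.94 and 7.82 in CAsE-PE, against 7.15, 6.88 and 7.24 in RWPE-1. The groups were apart by a difference of 0.81 (SE 0.12). SUN2, the inner nuclear membrane anchor of the linker between nucleus and cytoskeleton, had 9.07, 8.83 and 8.85 in CAsE-PE, against 7.96, 8.20 and 8.40 in RWPE-1. All its CAsE-PE arrays were higher, by 0.73 (SE 0.13). The other called members were TMEM184B, PICK1, TRIOBP and DNAL4. The transmembrane protein TMEM184B differed by 0.67 and the PDZ protein PICK1 by 0.57. The actin-binding TRIOBP differed by 0.46 and the dynein light chain DNAL4 by 0.44. The calls of TRIOBP and DNAL4 each held in 2 of the 6 fits with an array left out.

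KDELR3, a receptor that returns escaped proteins to the endoplasmic reticulum, had 8.44, 7.40 and 7.61 in CAsE-PE, against 7.80, 7.32 and 7.17 in RWPE-1. Only the 30 week array lay above all of RWPE-1, and the difference of 0.39 (SE 0.26) became 0.07 without that array. CACNA1I, a T-type calcium channel of neurons, had 6.45, 6.45 and 6.23 in CAsE-PE, against 6.55, 6.53 and 6.66 in RWPE-1. The groups stood just apart with CAsE-PE lower, by -0.20 (SE 0.11). PHETA2, an endosomal protein that binds the phosphatase OCRL, had 7.01, 7.25 and 7.31 in CAsE-PE, against 7.29, 7.43 and 7.44 in RWPE-1, which overlapped by a small margin at a difference of -0.20 (SE 0.11).

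Other genes of this group with values near 0 were the potassium channel KCNJ4 at -0.15, the neuronal pentraxin receptor NPTXR at -0.18, the membrane-bending protein BAIAP2L2 at -0.12, the chondroadherin-like CHADL at -0.08, the neuronal septin SEPTIN3 at -0.05 and the synaptic vesicle protein SYNGR1 at 0.13. None of them was called. KCNJ4 and NPTXR were lower on all 3 CAsE-PE arrays, and the groups of the other 4 overlapped. MICALL1, an adaptor of recycling endosomes, followed the shift with 0.31 and was not called.

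Of 11 genes of signalling and protein turnover, 6 were called higher and the median was 0.40. JOSD1, a deubiquitinase, had 9.67, 9.71 and 9.79 in CAsE-PE, against 8.81, 8.74 and 8.77 in RWPE-1. The groups lay far apart with little spread in either, and the difference was 0.95 (SE 0.09), or 1.93-fold. RBX1, the RING subunit of most cullin ligases, which recruits the ubiquitin-loaded enzyme, had 9.56, 9.70 and 9.68 in CAsE-PE, against 9.12, 9.06 and 8.57 in RWPE-1. Passage 42 was the lowest array, and the difference of 0.73 (SE 0.15) became 0.56 without it.

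PDGFB, the B chain of platelet-derived growth factor, had 7.02, 7.09 and 7.06 in CAsE-PE, against 6.60, 6.63 and 6.72 in RWPE-1. Its arrays were close together within each group, and the difference of 0.40 (SE 0.09) lay next to the members' median. RANGAP1, which activates the GTPase Ran at nuclear pores, differed by 0.52 (SE 0.13). The desumoylating protein DESI1 differed by 0.49 and the RAB GTPase regulator SGSM3 by 0.44, and all 3 were called. With each array left out in turn, their calls held in 3, 2 and 2 of the 6 fits. The ankyrin repeat protein ANKRD54 differed by 0.29 and was not called.

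GALR3, a galanin receptor, had the lowest difference of all members. It had 8.19, 8.09 and 7.85 in CAsE-PE, against 8.21, 8.29 and 8.41 in RWPE-1. CAsE-PE was lower on every array, though only just at 30 weeks, and the difference was -0.26 (SE 0.12, 95% interval -0.53 to 0.01). MCHR1, the receptor of melanin-concentrating hormone, differed by -0.07, TNFRSF13C, the BAFF receptor of B cells, by 0.05 and the secreted protein CCDC134 by 0.14, all with overlapping groups.

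Among the remaining 4 genes FAM227A, an uncharacterised gene, had 7.65, 8.05 and 8.31 in CAsE-PE, against 6.53, 6.49 and 6.82 in RWPE-1. The groups were far apart, and 1.39 (SE 0.17), or 2.62-fold, was the largest difference of the stretch. SMIM45, a small membrane protein gene, had 6.54, 6.69 and 6.5 in CAsE-PE, against 6.87, 6.72 and 6.90 in RWPE-1. All CAsE-PE arrays were lower, by -0.25 (SE 0.11), without a call. C22orf46P, the 1 member that RefSeq does not list as protein-coding, differed by 0.34.

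The members that lay below the shift also tended to have low signal. Of these 22, 18 were among the 34 members with the lower mean over all arrays, and their means had a median of 7.05, against 8.55 for the members above and 8.07 for the followers. The 34 dimmer members had a median difference of 0.13 and 8 calls, and the 34 brighter ones 0.54 and 23 calls. Intensities of different probes do not measure amounts of RNA against each other, and a signal near background shrinks a difference, so a gene that was not shifted and a gene too dim to show a shift cannot be told apart here. Among the members below the shift, RPL3 had a mean of 10.45, GALR3 of 8.17 and TNFRSF13C, picked out after its values were seen, of 8.07. Without detection calls, these means do not show how far such genes stood above background.

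Genes that work with the members but lie on other chromosomes were not used to choose the stretch. The partners of 17 complexes or pathways were examined, and 157 of 181 listed genes were both measured and encoded off chromosome 22. Partners counted as measured below are those off chromosome 22. Of these, 25 were called higher, or 15.9%, 9 lower, or 5.73%, and 123 neither, with a median difference of 0.03, beside 9.04% and 8.71% of all genes. The counts of higher calls were 11 without the array of passage 38, 11 without that of 35 weeks and 16 without that of passage 18. The called genes include 4 of the 5 partners that lie in the raised 7q or 17q stretches. Both partners in stretches lowered in CAsE-PE, CUL2 and PHC1, were called too, and all these stretches were chosen on these arrays. Outside these limits, RPL38, TNRC6C, CBX2, MAFG and NFE2L1 on chromosome 17 were called higher. On chromosome 10, DCLRE1C and MCU were called lower and PCGF5 higher. On chromosome 7, SUN1 was called higher and PDGFA and NFE2L3 lower. NDUFA9 on chromosome 12 and AGO4 on chromosome 1 were called higher, although the stretches chosen on these chromosomes were lowered. Other partners there, such as RPL19 and EIF3A, were not called, and nearness to a stretch was not tested.

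**Figure D5:**
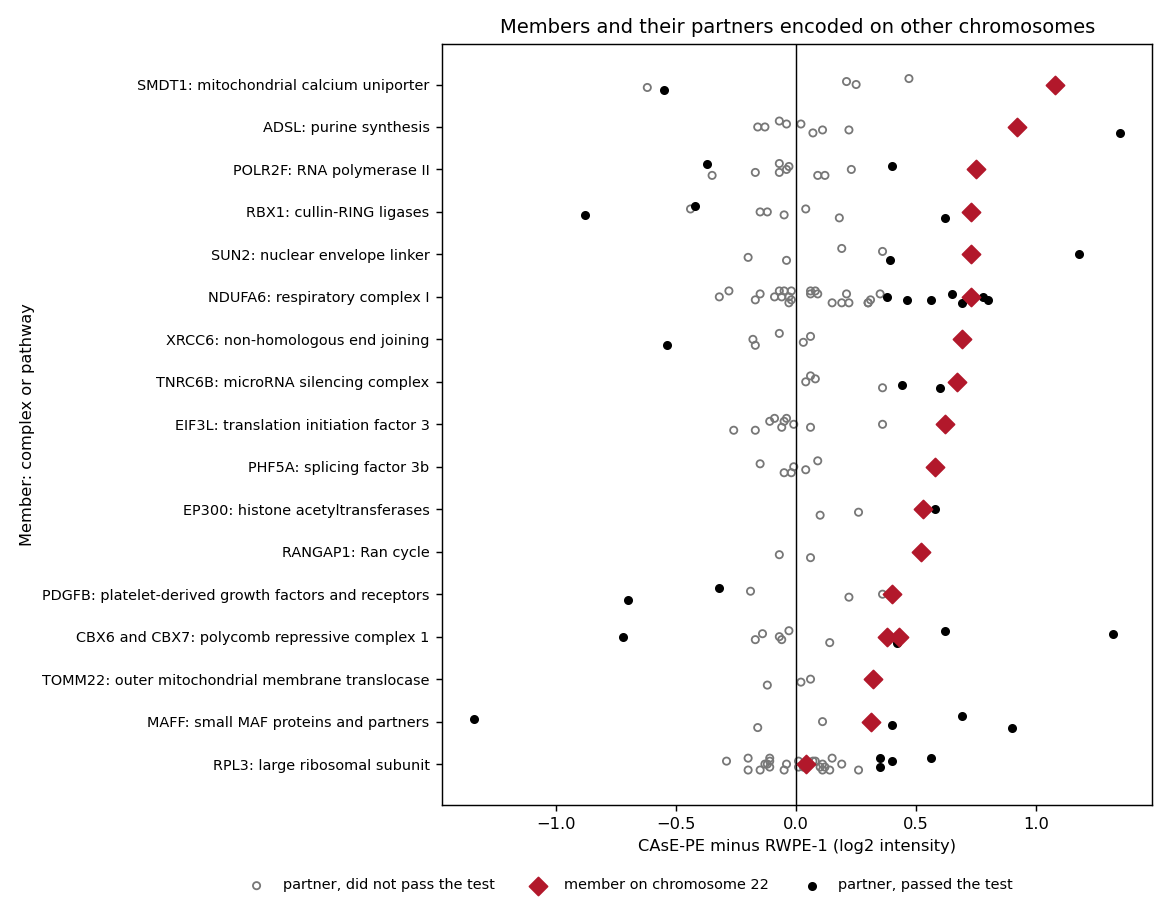
CAsE-PE minus RWPE-1 difference of log2(intensity + 1) for 18 members (red diamonds) and for the partners of each complex or pathway that lie on other chromosomes (circles, filled where the gene passed the limma test). The partners of EIF3L, POLR2F and PHF5A lie around 0, and those of complex I reach from -0.32 to 0.80.

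In several stable complexes the partners lay near 0 beside a shifted member. The members come from a stretch chosen for its rise and the partners do not. Some gap between them therefore follows from the choice, and the gap was not tested. The 10 measured partners of EIF3L in initiation factor 3 had a median difference of -0.05 and none was called, the highest being EIF3J with 0.36 (adjusted p = 0.199). The 6 partners of PHF5A in splicing factor 3b lay between -0.15 and 0.09, again with no call. Of the 11 other subunits of RNA polymerase II, POLR2J, in the raised 7q stretch, was higher by 0.40 (adjusted p = 0.0388) and POLR2E differed by -0.37 (adjusted p = 0.0407). Each call was lost with 5 of the 6 arrays left out in turn, at adjusted p of up to 0.127 and 0.144, and that of POLR2E also under median centring. The 29 measured partners of RPL3 in the large ribosomal subunit had a median of 0.05, and 4 were called higher, RPL13 with 0.56 (adjusted p = 0.00714), RPL7A with 0.40 (adjusted p = 0.0264), RPL35 with 0.35 and RPL38 with 0.35. As the mean of its 3 features RPL13 differed by 0.40. The call of RPL7A was lost with 4 of the 6 arrays left out, at up to 0.107, and those of RPL35 and RPL38 with every one.

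Mitochondrial partners moved in part. Of 31 measured partners of NDUFA6 in complex I, 7 were called higher, or 22.6%, and 0 lower, with a median of 0.09. Over all genes 9.04% were called higher. Of the 7 calls, 4 were lost with at least 2 of the arrays left out in turn. These were NDUFA5, which lies in the raised 7q stretch, NDUFA8, NDUFA10 and NDUFB1. NDUFA2 had 10.26, 10.27 and 10.48 in CAsE-PE, against 9.64, 9.66 and 9.30 in RWPE-1. It was higher on all CAsE-PE arrays, by 0.80 (adjusted p = 0.00301), and NDUFB2, which lies in the raised 7q stretch, by 0.78 (adjusted p = 0.00489). MCU, the pore of the calcium uniporter that SMDT1 serves, had 9.05, 9.02 and 8.97 in CAsE-PE, against 9.59, 9.56 and 9.55 in RWPE-1. It fell by 0.55 (limma adjusted p = 0.00361) with no overlap. None of the other 4 measured uniporter genes was called, among them MCUB, a paralog of the pore, with -0.62 (adjusted p = 0.0544). The 3 measured partners of TOMM22 lay between -0.12 and 0.06.

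Among purine synthesis genes, ADSS1, which makes the substrate of ADSL in muscle, rose by 1.35 (adjusted p = 0.00715), and the other 8 lay between -0.16 and 0.22 with no call. Of the partners of XRCC6 in end joining, the nuclease gene DCLRE1C fell by 0.54 (adjusted p = 0.00767), while XRCC5, the other Ku subunit, differed by -0.17 (adjusted p = 0.393). Of the partners of RBX1, CUL1, in the raised 7q stretch, rose by 0.62 (adjusted p = 0.00411), CUL2, in a lowered stretch of chromosome 10, fell by 0.88 (adjusted p = 0.0016) and CUL4B by 0.42 (adjusted p = 0.024, lost with 4 of the 6 arrays left out in turn, up to 0.102). In the microRNA silencing complex AGO4 rose by 0.60 (adjusted p = 0.00748) and TNRC6C, a paralog of TNRC6B, by 0.44 (adjusted p = 0.0177, lost with 3 of the 6 arrays left out, up to 0.0773).

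In polycomb repressive complex 1 the RING finger gene PCGF5 rose by 1.32 (adjusted p = 0.000201). PHC3 rose by 0.62 (adjusted p = 0.00705), and by 0.49 as the mean of its 2 features. PHC1, in a lowered stretch of 12p, fell by 0.72 (adjusted p = 0.0058), and the median of the 10 measured was -0.04. KAT2B, an acetyltransferase that works with EP300, rose by 0.58 (adjusted p = 0.0445), and CREBBP, the close paralog of EP300, differed by 0.10 (adjusted p = 0.528). The KAT2B call was lost with 5 of the 6 arrays left out in turn, at an adjusted p of up to 0.142, and under quantile normalisation and a pseudocount of 16. SYNE2, a giant linker protein that binds SUN2, rose by 1.18 (adjusted p = 0.00224) and SUN1 by 0.39 (adjusted p = 0.0192, lost with 3 of the 6 arrays left out, up to 0.0866). RAN and RANBP2, the 2 measured partners of RANGAP1, differed by 0.06 and -0.07.

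For MAFF, the partner NFE2L3 had 5.90, 6.34 and 6.09 in CAsE-PE, against 7.42, 7.66 and 7.27 in RWPE-1. It was lower on every CAsE-PE array, by -1.34 (adjusted p = 0.000359). MAFG rose by 0.90 (adjusted p = 0.0134, and 0.0567 without the passage 38 array), and by 0.59 as the mean of its 3 features. BACH1 rose by 0.69 (adjusted p = 0.0178, lost with 3 of the 6 arrays left out, up to 0.0729). For PDGFB, the other chain gene PDGFA fell by 0.70 (adjusted p = 0.00312), and the receptor gene PDGFRB by 0.32 (adjusted p = 0.0479), at mean log2 intensities of 5.78 in CAsE-PE and 6.09 in RWPE-1. The PDGFRB call was lost with each of the 6 arrays left out, at an adjusted p of up to 0.156, and under quantile normalisation, where the difference was -0.18, and median centring, where it was -0.29.

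Differences within each group were not used to choose the members either, and a further limma model, which leaves 2 residual degrees of freedom, tested them. No member had a called trend with passage in RWPE-1 or with weeks in CAsE-PE, where 0.0217% and 0.25% of all genes were called. At an unadjusted p under 0.05 there were 3 members for passage and 8 for weeks, or 4.41% and 11.8%, beside 5.82% and 11.3% of all genes. The steepest weekly slopes were -0.225 per week for APOBEC3B (adjusted p = 0.184), -0.189 for KDELR3 (adjusted p = 0.159), -0.158 for MAFF (adjusted p = 0.121) and 0.129 for FAM227A (adjusted p = 0.248). The first 3 of these were highest at 30 weeks, and FAM227A was lowest there.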

How the data were processed

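Total RNA of 6 cell samples was hybridised to single-colour arrays that cover whole transcripts. The authors deposited 1 linear intensity per feature and array for 33252 features. How background was corrected and arrays were normalised is not given in the sources, no detection calls came with the values, and low values cannot be told from background. The number of arrays, 3 per group, limits the precision.

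Features were named through GEO's platform annotation, which gave 1 symbol for 19460, several for 1754 and did not list 12038. The brightest feature stood for each of 18417 genes, and gene order came from RefSeq. Values were taken as log2(intensity + 1), which understates the fold changes of dim genes, and fitted by lmFit and eBayes of limma 3.58.1 under R 4.3.3, two-sided and adjusted over all genes. The steps were tested on simulated data.

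The members, role groups and partner lists were chosen with earlier results of these data known. Named members were the 6 largest and 6 smallest differences, the 4 nearest the median, both ends, the extremes of each role group, the 2 on each side of the level limit and those with partner lists. Partners were named up to 2 rises and 2 falls a list. Other genes were chosen as examples after their values were seen. Of 23 partner lists drawn up, the 17 whose anchor gene is a member were used. Alternatives were quantile normalisation, median centring, a pseudocount of 16, a filter on dim genes, the mean of features, other variance models, array weights, other limits of the classes and each array left out. Python 3.11.15, pandas 2.3.3, numpy 2.4.6 and matplotlib 3.10.9 were used.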

Additional observations from a re-analysis of the deposited data

How the results depend on the processing

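The median difference of the members stayed between 0.38 and 0.44 with any 1 array left out and between 0.36 and 0.45 under the other settings, and the count of members called higher stayed between 22 and 32 and between 31 and 40. From 59 to 68 of the 68 members kept their class under each alternative that rescaled or dropped arrays, and none passed from above to below the shift or back. Of the 13 members above, 7 stayed there without each array in turn, as did 24 of 33 followers and 18 of 22 members below. The call of higher held in all 6 of these fits for 12 members above and for 7 of the 19 called followers. Under the other settings 8 to 19 members lay above the shift, 26 to 41 followed it and 19 to 23 lay below. A class limit of 0.35 left 8 members above the shift. Partners called higher numbered 11 to 22 with 1 array left out, and partners called lower 15 with array weights. Over all genes, 3269 were called in all, 5342 with array weights and 1888 without the array of passage 38. No called difference of a named gene turned its direction under these settings, whereas 7 members near 0 (C22orf23, SEPTIN3, SLC16A8, MCHR1, TEF, APOBEC3D and APOBEC3F) had either sign with an array left out. No paired analysis was possible because the labels give the arrays no shared replicate numbers. With 3 arrays a group and no background measure, dim members set a limit that no setting removes.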
